A study of Mus musculus with 10 samples.

Results

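Opposite-strand transcripts are RNAs copied from the DNA strand across from a named gene and called after it with the suffix os. The members described here are the array probes whose annotation names such a transcript and which the scanner software marked as well above background on 4 or 5 arrays of 1 genotype. Of 198 such probes on the array, 67 met that rule, and they name 59 of 177 transcripts. Each was set beside its sense gene, the gene whose name it carries. The samples were total RNA from the cardiac tissue of male mice, each labelled with a single dye and hybridised alone to an Agilent array.

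The 5 knockout samples came from C57BL/6 HIPK2-/- mice, made by CRISPR injection of embryos, which left a 56-base deletion and a shifted reading frame in the second exon of Hipk2, and crossed with C57BL/6 wild-type mice to expand the colony. The 5 samples set against them are labelled wild type. The deletion is in the germline, so every cell type of the tissue carries it. The mice were kept on ordinary chow with no treatment named. Age is not among the labels used here, and nothing in the labels ties each sample to its own animal. The p-values therefore describe the spread among 10 samples, part of which may be technical. HIPK2 is a nuclear serine/threonine kinase that acts on transcription factors and co-regulators.

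Transcripts that run antisense to a gene can start beside its promoter and point away from it, start inside it and run back across its exons, or end against its 3′ end. Some are known to act in cis, on the gene across from them, through transcriptional interference, through chromatin at the shared promoter or through pairing of the RNAs, and many have no known role. A name ending in os says only where the RNA lies. Several of the members are protein-coding genes in RefSeq: Zbtb8os encodes Archease, a cofactor of the RNA ligase of tRNA splicing, and Wdr83os encodes Asterix, a chaperone partner for membrane proteins in the endoplasmic reticulum.

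The array tells the strands apart because each probe is a single-stranded 60-base oligonucleotide. The probes of the 5 transcripts that passed the test, and of Slfn5os, whose sense gene had a probe that passed it, are given 5′ to 3′ in lower case as the array files list them, with their positions on mouse build mm9, since these sequences are what the values below were read with.
Irx3os, chr8:94329643-94329702 on the plus strand: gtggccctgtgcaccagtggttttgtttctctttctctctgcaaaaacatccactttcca
Uckl1os, first probe, chr2:181316221-181316280 on the plus strand: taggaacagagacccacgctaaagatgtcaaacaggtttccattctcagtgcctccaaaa
Uckl1os, second probe, chr2:181319732-181319791 on the plus strand: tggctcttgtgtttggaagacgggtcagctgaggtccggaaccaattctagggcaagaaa
Kcnd3os, chr3:105254246-105254305 on the minus strand: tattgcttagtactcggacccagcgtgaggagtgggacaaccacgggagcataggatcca
Pitpnm2os1, chr5:124687087-124687146 on the plus strand: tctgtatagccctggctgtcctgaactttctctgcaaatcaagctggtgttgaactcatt
Mkln1os, chr6:31316982-31317041 on the minus strand: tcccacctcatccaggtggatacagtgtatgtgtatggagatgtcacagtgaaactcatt
Slfn5os, chr11:82755859-82755918 on the minus strand: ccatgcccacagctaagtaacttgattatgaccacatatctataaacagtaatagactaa

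For Frmd8os and its sense gene, the array carries probes to the same 60 bases of chromosome 19, one for each strand. The 30 bases below are shared by both probes, and the capitals mark bases that pair with the other probe, which here is all of them. Abhd11os is the other member whose probe shares a long complementary stretch with a sense-gene probe, of 32 unbroken bases. The other pairs of probes shared shorter stretches or none.
Frmd8os, chr19:5851340-5851369 on the plus strand: ACATGTGGTAATTAAAAAACTCAAAGGCTC
Frmd8, chr19:5851340-5851369 on the minus strand: GAGCCTTTGAGTTTTTTAATTACCACATGT

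RefSeq matched 54 of the 59 transcripts. It listed 45 as lncRNA, 8 as protein-coding (among them Zbtb8os, Wdr83os, Ccpg1os, Tmem74bos, Crxos, Cebpzos and Slc7a6os) and 1, Fbxl12os, as a transcribed pseudogene. Arhgap27os1, Frmd8os, Tmem147os, Mypopos and Toporsos had no match. The transcripts lie on 16 chromosomes, with 11 on chromosome 11, 8 on chromosome 2 and 7 on chromosome 4. A sense gene was on the array for 58 of them, all but Tnfsf13os, where Zbtb8os was matched to Zbtb8b, which RefSeq lists under the older name Zbtb8 and whose start lies 104850 bases away, and in all 58 the sense probe lay on the same chromosome and the opposite strand in mm9.

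In RefSeq (assembly GRCm38.p6), the spans of both genes could be compared for 53 transcripts, and they overlapped for 31. Start sites of both were listed for 36, and for 19 they lay within 1000 bases of each other. Of those 19, 13 pointed away from each other, the arrangement of a shared promoter region. Mkln1os is among the closest pairs, with a start 55 bases from that of Mkln1, the gene for muskelin, a subunit of a ubiquitin ligase complex. The RefSeq promoter of Mkln1 is shown with the stretch between both starts in capitals, because values of the pair are given below. It holds 19 CG pairs in its 300 bases, and 28.1% of the 32851 promoters in that table hold at least as many. Exon and intron annotation of mm9 was not used here.
Mkln1 promoter, GRCm38.p6, chr6:31398578-31398877 on the plus strand: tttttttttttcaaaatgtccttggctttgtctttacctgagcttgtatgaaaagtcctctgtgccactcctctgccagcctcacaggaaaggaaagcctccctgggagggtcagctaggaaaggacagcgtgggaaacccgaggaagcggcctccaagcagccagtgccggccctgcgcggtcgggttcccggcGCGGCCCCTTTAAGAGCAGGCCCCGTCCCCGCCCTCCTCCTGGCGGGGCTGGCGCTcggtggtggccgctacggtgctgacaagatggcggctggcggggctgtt

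Of the 131 opposite-strand probes that did not meet the rule, 99 were well above background on no array, 31 on 1 to 5 arrays and 1 on more. The share of opposite-strand probes that met it was 33.8%, against 54.2% of all 56605 probes. Of the 67 that did, 46 met it in both genotypes, 21 in wild type alone and 0 in knockout alone. A member that met it through wild type alone had to miss the mark on some knockout arrays, so a lower value there, where it had one, was partly selected. Some of these members read higher in knockout, such as Vax2os (log2 difference 0.60) and Etaa1os (0.28). The same skew runs through the array, with 17.2% of all 30693 kept probes meeting the rule through wild type alone and 0.173% through knockout alone. The number of opposite-strand probes well above background was 76, 55, 47, 49 and 77 on the arrays of knockout samples 1 to 5, against 68, 76, 71, 72 and 78 on those of wild-type samples 1 to 5. Knockout samples 2, 3 and 4 were low, and the other 2 knockout samples lay within the wild-type range (exact two-sided permutation p = 0.143).

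**Figure D1:**
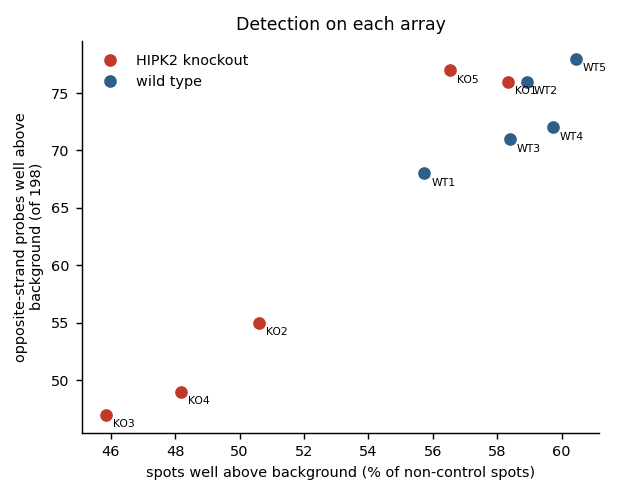
Number of opposite-strand probes well above background on each array (y axis, of 198) against the share of all non-control spots well above background (x axis, in %), with knockout samples in red and wild-type samples in blue. Knockout samples 2, 3 and 4 sit at 45.8% to 50.6% of spots and 47 to 55 opposite-strand probes, apart from the other 7 arrays.

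These arrays differ between genotypes in ways that reach dim probes. The 75th percentile of the processed signal, by which each array was scaled, was 286 to 460 in knockout and 462 to 542 in wild type (exact permutation p = 0.00794). The lowest signal called well above background, on the scaled log2 axis, was -4.91, -3.76, -3.01, -3.60 and -4.56 in knockout samples 1 to 5, against -4.61, -4.97, -4.88, -5.08 and -5.05 in wild-type samples 1 to 5. Slide 1 held wild-type samples 1 and 2. Slide 2 held knockout sample 1 with wild-type samples 3, 4 and 5 in its upper row, and knockout samples 2 to 5 in its lower row. Cardiomyocyte markers were bright on all arrays (8 of 8 kept, mean log2 signal 8.37 to 8.83 in knockout and 7.87 to 8.38 in wild type, exact permutation p = 0.0159). The atrial markers Myl7, Myl4 and Sln, all 3 kept, averaged -2.75 to 1.56 in knockout and -3.02 to 4.81 in wild type, and the 4 adipocyte markers, all kept, -5.04 to -2.96 in knockout and -4.17 to 0.29 in wild type. Endothelial markers (4 of 4 kept) averaged 2.10 to 2.42 in knockout and 2.47 to 2.72 in wild type, with no overlap (exact permutation p = 0.00794), and macrophage markers (9 of 9 kept) 1.43 to 1.97 in knockout and 1.94 to 2.21 in wild type (exact permutation p = 0.0159). Adjusted over the 11 array measures tested, the p-values of the endothelial, macrophage and cardiomyocyte scores and of the 75th percentile were each 0.0437. In bulk tissue, fewer cells of a type and less RNA per cell cannot be told apart. The part of slide, row, dim arrays or cell makeup in the differences below was not tested beyond the alternative fits that are named beside them. The 3 kept Hipk2 probes had log2 fold changes of 0.04, 0.11 and -0.01, none past the threshold, and their place relative to the deletion was not analysed here.

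The first comparison asked which opposite-strand transcripts differed between HIPK2 knockout and wild type. Signals are log2 values relative to the array's 75th percentile, differences are knockout minus wild type, and a probe passed at an adjusted p under 0.05 in limma, with p-values adjusted over all 30693 kept probes. Of the 67 probes, 6 passed (8.96%), against 1364 of all kept probes (4.44%). Higher in knockout were 5 probes of 4 transcripts, Irx3os, Uckl1os (both probes), Kcnd3os and Pitpnm2os1, which is 7.46% of the members against 1.69% of all kept probes. The members were mostly dim, and the share of all kept probes was not matched to them for brightness. Lower in knockout was 1 probe, Mkln1os, 1.49% of the members against 2.76% of all, and it met the detection rule through wild type alone. All 6 are lncRNA in RefSeq, among 49 lncRNA probes, and 0 of the 11 protein-coding probes passed in limma (2 had an unadjusted p under 0.05). At an unadjusted p under 0.05 the share was 18 of 67 (26.9%), against 26.1% of all kept probes.

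Irx3os is named for Irx3, an Iroquois homeobox transcription factor of the ventricular conduction system. In RefSeq the spans of Irx3os and Irx3 lie apart, with starts 1682 bases from each other and pointing away from each other. The Irx3os probe was read first. The signal of Irx3os was -2.44, -2.25, -2.58, -2.62 and -2.07 in knockout samples 1 to 5, against -2.94, -3.12, -3.05, -3.22 and -3.22 in wild-type samples 1 to 5. All knockout samples were above all wild-type samples, and the lowest knockout value was 0.32 above the highest wild-type value. Knockout samples averaged -2.39 ± 0.23, against -3.11 ± 0.12 for wild-type samples (SD, n = 5 each). The difference was 0.72 ± 0.12 (SE of the fit; adjusted p = 0.0152), or 1.64-fold. Irx3 itself read 3.27, 3.22, 2.54, 2.74 and 3.14 in knockout samples 1 to 5, against 2.76, 1.81, 2.45, 2.41 and 2.44 in wild-type samples 1 to 5. The groups overlapped through knockout samples 3 and 4 and wild-type sample 1. The difference for Irx3 was 0.61 ± 0.19 (SE of the fit; adjusted p = 0.0888), which did not pass. Irx3os minus Irx3 differed between genotypes by 0.11 (exact permutation p = 0.54), within the spread between samples. The call for Irx3os held on slide 2 alone (0.77, adjusted p = 0.0398) and was lost once the atrial score entered the fit (0.65, adjusted p = 0.0805).

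Uckl1os gave the largest rise among the 67 probes. It lies across from Uckl1, a relative of the uridine-cytidine kinases that salvage pyrimidines, and RefSeq's gene spans overlap. Its first probe read -2.12, -1.81, -2.64, -1.53 and -1.19 in knockout samples 1 to 5, against -2.83, -3.36, -3.78, -4.54 and -4.37 in wild-type samples 1 to 5. The groups did not overlap, knockout sample 3 was the lowest of its group and wild-type sample 1 the highest of the other. Knockout samples averaged -1.86 ± 0.56, against -3.77 ± 0.71 for wild-type samples (SD, n = 5 each). The difference was 1.92 ± 0.35 (SE of the fit; adjusted p = 0.0207), or 3.78-fold.

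The second Uckl1os probe begins 3451 bases past the end of the first on the plus strand. It read -2.03, -2.47, -3.09, -2.26 and -2.03 in knockout samples 1 to 5, against -2.81, -3.37, -3.27, -3.47 and -3.72 in wild-type samples 1 to 5. Knockout sample 3 fell among the wild-type values, so the groups overlapped. The difference was 0.95 ± 0.22 (SE of the fit; adjusted p = 0.0408), or 1.93-fold. Both probes rose, and knockout sample 3 was the lowest knockout sample by each.

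Uckl1 itself read 2.88, 2.71, 2.77, 2.92 and 2.78 in knockout samples 1 to 5, against 2.51, 2.44, 2.85, 2.63 and 2.77 in wild-type samples 1 to 5, and the groups overlapped. The difference of 0.17 ± 0.10 (SE of the fit; adjusted p = 0.282) did not pass. Set against Uckl1 on the same array, Uckl1os was higher in knockout by 1.74 with the first probe (exact permutation p = 0.0159) and by 0.78 with the second (exact permutation p = 0.0238). On slide 2 alone the first probe's difference was 2.37 (adjusted p = 0.0243) and the second's 1.11 (adjusted p = 0.0600). Once the atrial score entered the fit they were 1.68 (adjusted p = 0.101) and 0.77 (adjusted p = 0.155), neither past the threshold.

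Kcnd3os lies across from Kcnd3, which encodes Kv4.3, a pore subunit of the transient outward potassium current. The opposite-strand probe read -3.57, -3.52, -3.36, -3.26 and -3.64 in knockout samples 1 to 5, against -4.62, -4.65, -4.19, -4.06 and -3.79 in wild-type samples 1 to 5. All knockout samples were above all wild-type samples, by 0.14 at the nearest, and wild-type samples 1 and 2 on slide 1 were the lowest. The difference was 0.79 ± 0.17 (SE of the fit; adjusted p = 0.0306), or 1.73-fold. On slide 2 alone it was 0.54 (adjusted p = 0.0744), and the probe was well above background on 4 arrays of each genotype. Kcnd3 read 1.25, 1.13, 0.89, 1.28 and 1.29 in knockout samples 1 to 5, against 1.19, 0.94, 1.04, 0.85 and 0.85 in wild-type samples 1 to 5. Those ranges overlapped, and the difference of 0.20 ± 0.11 (SE of the fit; adjusted p = 0.269) did not pass.

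Pitpnm2os1 lies across from Pitpnm2, a membrane-associated phosphatidylinositol transfer protein. Its signal was -0.86, -1.05, -0.90, -0.63 and -1.33 in knockout samples 1 to 5, against -1.32, -1.42, -1.55, -1.65 and -1.77 in wild-type samples 1 to 5. Knockout sample 5 lay at the upper edge of the wild-type values and the other 4 knockout samples lay above them. The difference was 0.59 ± 0.14 (SE of the fit; adjusted p = 0.0406), or 1.5-fold. Pitpnm2 was 3.09 to 3.44 in knockout and 3.01 to 3.20 in wild type, a difference of 0.21 ± 0.09 (SE of the fit; adjusted p = 0.162) that did not pass. The pair's difference between genotypes was 0.38 (exact permutation p = 0.0635).

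Mkln1os was the single member past the threshold that was lower in knockout. It read -4.08, -4.46, -4.83, -3.95 and -4.48 in knockout samples 1 to 5, against -3.75, -3.85, -3.73, -3.60 and -3.36 in wild-type samples 1 to 5. Every knockout value was below every wild-type value, but only 2 of the 5 knockout arrays had the spot well above background, against 5 of 5 in wild type. Mkln1os thus met the detection rule through wild type alone, so the fall behind the p-values below was partly selected. The difference was -0.70 ± 0.17 (SE of the fit; adjusted p = 0.0419). Mkln1, well above background on all 10 arrays, read 1.08, 1.15, 0.89, 1.23 and 1.08 in knockout samples 1 to 5, against 1.32, 1.19, 0.85, 0.83 and 0.92 in wild-type samples 1 to 5, and its difference was 0.07 ± 0.12 (SE of the fit; adjusted p = 0.756). Relative to Mkln1, Mkln1os differed by -0.77 on the log2 scale (exact permutation p = 0.00794). Against the 3 other kept Mkln1 probes, dimmer ones at -0.37, -0.44 and 0.10, it differed by -0.34, -0.26 and -0.81 (exact permutation p = 0.333, 0.548 and 0.0317). With normexp background correction and an added offset of 50, the difference was 0.10 (adjusted p = 0.523) and the pair's 0.05 (exact permutation p = 0.802). The fall thus depends on the processing, and the parts of the correction and of the offset were not separated.

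**Figure D2:**
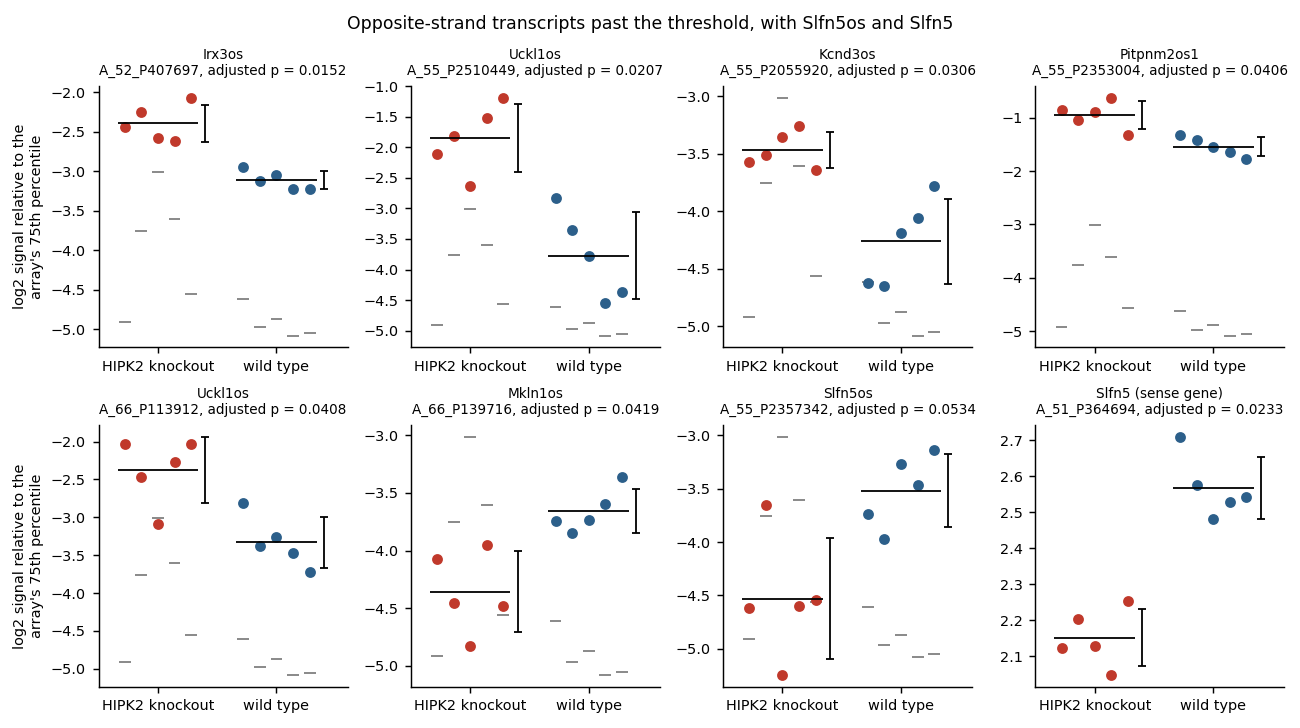
Log2 signal relative to each array's 75th percentile (y axis) in the 5 knockout samples (red, left) and the 5 wild-type samples (blue, right), in order of sample number, for the 6 probes past the threshold, Slfn5os and the brightest Slfn5 probe. Black lines are means with the SD beside them, and grey dashes give the lowest signal called well above background on each array, which is out of range for Slfn5. Uckl1os on its first probe and Irx3os show knockout samples wholly above wild-type samples, and Mkln1os shows them below, with several knockout points at or under the grey dashes.

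Leaving out 1 sample at a time, Irx3os passed in 10 of 10 fits and the first Uckl1os probe in 9 of 10, lost without wild-type sample 5 (adjusted p = 0.0542). Kcnd3os passed in 4 of 10, Pitpnm2os1 and the second Uckl1os probe in 2 of 10 each and Mkln1os in 1 of 10. With the slide and row of each array as covariates, the difference is that of knockout sample 1 against wild-type samples 3 to 5. These alone share a row across genotypes, so no count of calls is given for that fit. Without knockout samples 2, 3 and 4, 0 of the 67 probes passed in limma (10 had an unadjusted p under 0.05). Of all 30693 kept probes, 19 passed in that fit (4244 unadjusted). The sign of all 6 differences stayed as reported in both fits.

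A further 4 members, Hoxa11os, Hoxb5os, Hmgb4os and Ccdc34os, had knockout samples wholly above wild-type samples without passing. In all, 7 probes (10.4%) had knockout wholly above wild type, against 4.09% of all kept probes, and 1 probe (1.49%) had it wholly below, against 4.41%. For all 4 (Hoxa11os by the first of its probes below), wild-type samples 1 and 2, the samples of slide 1, were the lowest.

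Hoxb5os, across from the homeobox gene Hoxb5, read -0.32, -0.19, 0.28, -0.17 and -0.30 in knockout samples 1 to 5, against -1.99, -1.73, -0.49, -0.68 and -0.50 in wild-type samples 1 to 5. Wild-type samples 1 and 2 were far below the other 3. The difference was 0.94 ± 0.30 (SE of the fit; adjusted p = 0.091) over all samples and 0.41 on slide 2 alone (adjusted p = 0.174).

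Hmgb4os, named for the HMG-box gene Hmgb4, whose span lies apart from it, showed the same split, with -2.30, -1.93, -1.73, -2.39 and -2.38 in knockout samples 1 to 5, against -4.09, -4.19, -2.46, -2.80 and -2.55 in wild-type samples 1 to 5. Its difference was 1.07 ± 0.35 (SE of the fit; adjusted p = 0.0962), and 0.46 on slide 2 alone (adjusted p = 0.198). Ccdc34os read -1.46, -1.74, -0.92, -1.54 and -1.24 in knockout samples 1 to 5, against -2.36, -4.09, -1.80, -2.02 and -1.79 in wild-type samples 1 to 5. Wild-type sample 2 was lowest by a wide margin, and the difference of 1.03 ± 0.39 (SE of the fit; adjusted p = 0.135) was 0.49 on slide 2 alone (adjusted p = 0.180).

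Hoxa11os, across from Hoxa11, has a pair of kept probes. The first read -2.04, -1.90, -1.57, -1.99 and -2.17 in knockout samples 1 to 5, against -2.72, -2.62, -2.19, -2.32 and -2.33 in wild-type samples 1 to 5, a difference of 0.50 ± 0.14 (SE of the fit; adjusted p = 0.0621). The second differed by 0.24 ± 0.19 (SE of the fit; adjusted p = 0.451) with overlapping groups. The sense genes Hoxa11, Hoxb5 and Hmgb4 were not well above background on enough arrays to be kept.

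Over the 67 probes, log2 differences ran from -1.02 (Slfn5os) to 1.92 (Uckl1os), with a median of 0.11, against a median of 0.01 over all kept probes. Differences above 0 numbered 42 (62.7%), against 51.1% of all kept probes. The median member signal lay between -2.80 (wild-type sample 4) and -2.25 (knockout sample 2), and the shares of all kept probes were not matched for brightness. With no filter on dim probes, the median difference over all 56605 probes was 0.22. Whether brightness bears on the members' shares was not tested. The 7 lowest members (Slfn5os, Mkln1os, Foxd2os, Zeb2os, Arhgap27os1, Dnm3os and the first Med9os probe) were, apart from Med9os, members that met the rule through wild type alone.

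**Figure D3:**
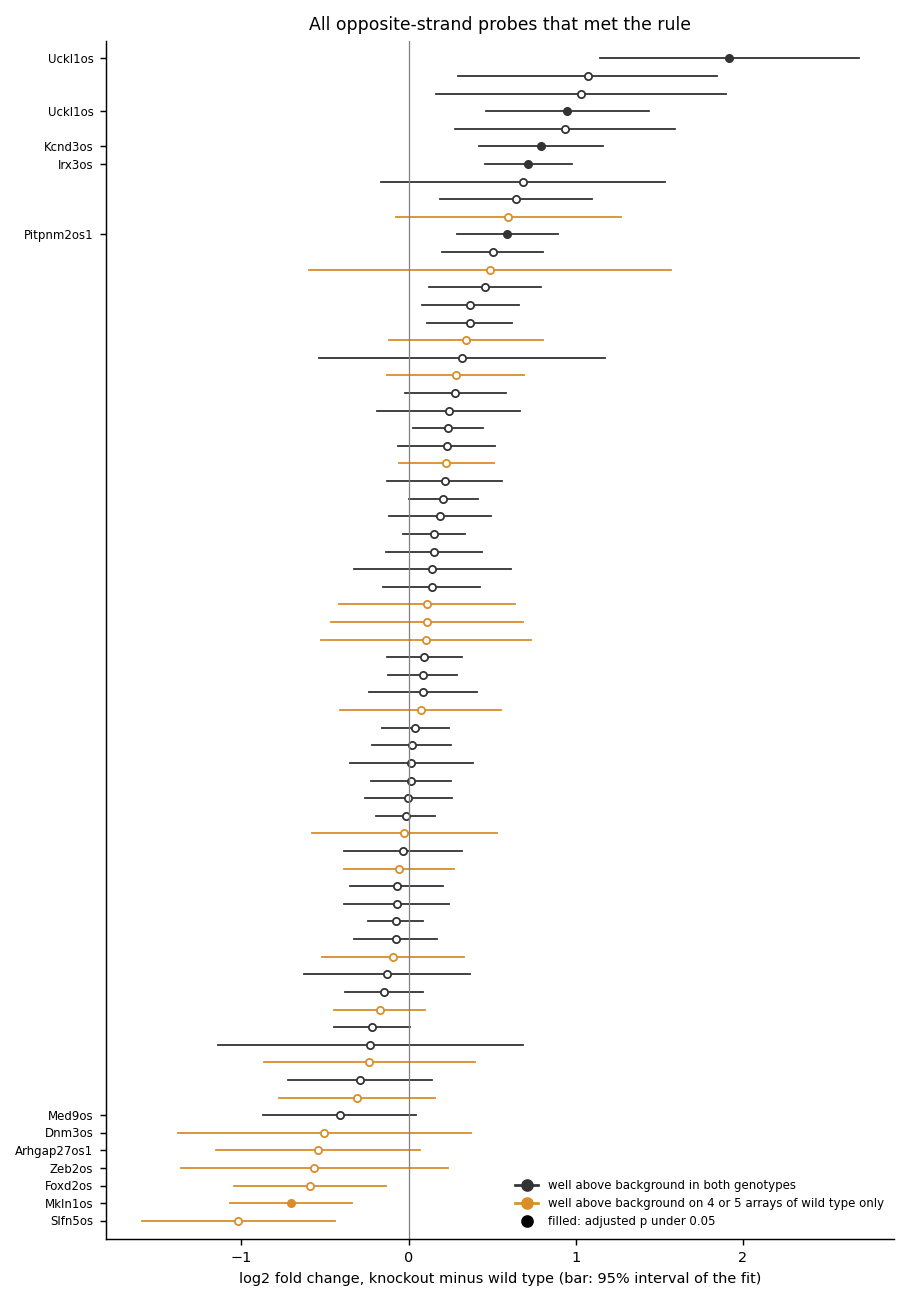
Log2 fold change of each of the 67 opposite-strand probes, knockout minus wild type, with the 95% interval of the fit (x axis), in order of the fold change down the page. Black marks met the detection rule in both genotypes and orange marks in wild type alone, and filled marks passed the threshold. The 6 filled marks are Uckl1os (both probes), Kcnd3os, Irx3os, Pitpnm2os1 and Mkln1os, and 5 of them lie at the upper end. Names are given for these and for the 7 lowest members.

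The 10 probes with the highest mean signal (Cebpzos, Wdr83os on both probes, Sp3os, Fbxl12os, a Zbtb8os probe, Atcayos, Toporsos, Hk1os and Ggnbp2os) had differences from -0.08 to 0.64. In limma 0 of 10 passed, against 4.44% of all kept probes, and 2 had an unadjusted p under 0.05, against 26.1% of all. Signals of different probes are not compared as amounts of RNA, since probes bind with different strength. Hk1os, across from the hexokinase gene Hk1, was the one at 0.64, with 1.33, 1.56, 1.76, 1.47 and 1.15 in knockout samples 1 to 5, against 0.28, 0.34, 1.14, 1.14 and 1.16 in wild-type samples 1 to 5. Wild-type samples 1 and 2 were again the lowest, and on slide 2 alone the difference was 0.31 (adjusted p = 0.252). The brightest Hk1 probe showed the same 2 samples lowest, at 5.46 and 5.53, and differed by 0.36 ± 0.16 (SE of the fit; adjusted p = 0.179), but the other kept Hk1 probes differed by -0.36 (adjusted p = 0.150) and 0.32 (adjusted p = 0.366), so no direction is given for Hk1. Sp3os, across from the gene of the zinc finger factor Sp3, read 2.97, 2.74, 2.71, 2.87 and 2.62 in knockout samples 1 to 5, against 2.51, 2.41, 2.72, 2.53 and 2.57 in wild-type samples 1 to 5, a difference of 0.23 ± 0.09 (SE of the fit; adjusted p = 0.151) with overlapping groups.

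Of the 7 transcripts with several kept probes, Uckl1os alone had more than 1 probe past the threshold. The 3 probes of Zbtb8os differed by 0.21 (adjusted p = 0.184), 0.09 (adjusted p = 0.585) and -0.08 (adjusted p = 0.702). The Wdr83os probes differed by 0.15 (adjusted p = 0.268) and -0.07 (adjusted p = 0.550), and so had opposite signs. Med9os, named for a subunit of the Mediator complex, was -0.41 (adjusted p = 0.233) and -0.29 (adjusted p = 0.361). The 2 probes of Tmem147os gave 0.32 (adjusted p = 0.629) and -0.07 (adjusted p = 0.785), and those of Junos, named for the immediate early gene Jun, 0.49 (adjusted p = 0.556) and -0.02 (adjusted p = 0.962).

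Dnm3os, the precursor of a microRNA cluster known from skeletal and cardiac development, read -4.70, -3.65, -3.65, -5.72 and -3.52 in knockout samples 1 to 5, against -4.37, -3.56, -3.82, -3.46 and -3.52 in wild-type samples 1 to 5. Knockout samples 1 and 4 and wild-type sample 1 were the lowest, and the groups overlapped throughout. The difference was -0.50 ± 0.40 (SE of the fit; adjusted p = 0.443), with 3 of 5 knockout arrays well above background.

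The next comparison asked whether the sense genes differed. Each was read by its brightest kept probe. Of the 49 sense genes kept on the array, 1 passed by that probe (2.04%), against 4.44% of all kept probes, and it was lower in knockout. Over all 92 kept probes of these genes 2 passed (2.17%), both lower, 1 for Slfn5 and 1 for Zeb2. Of the 22 genes with several kept probes, 15 had probes on both sides of 0, so a direction given below for a sense gene is that of the probe named. Unadjusted, 15 of 49 (30.6%) had a p under 0.05, against 26.1% of all. Their differences ran from -0.51 to 0.71, with a median of -0.07, and 21 of 49 (42.9%) lay above 0. With knockout wholly below wild type were 3 sense genes (6.12%, against 4.41% of all kept probes), Slfn5, Zeb2 and Slc7a6, and 0 lay wholly above by the brightest probe. Over all 92 probes 4 lay wholly below and 1, a Slfn5 probe, wholly above.

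Slfn5, a schlafen family gene induced by interferon, was the one whose brightest probe passed. It read 2.12, 2.20, 2.13, 2.05 and 2.25 in knockout samples 1 to 5, against 2.71, 2.58, 2.48, 2.53 and 2.54 in wild-type samples 1 to 5. The highest knockout value was 0.23 below the lowest wild-type value. By this probe Slfn5 fell, with a difference of -0.42 ± 0.08 (SE of the fit; adjusted p = 0.0233). The other 4 kept Slfn5 probes did not pass and did not share 1 direction. One of them, well above background on all 10 arrays, averaged 2.20 in knockout and 1.64 in wild type, with knockout wholly above wild type (0.56, adjusted p = 0.0582), and the others were at 0.03 (adjusted p = 0.914), -0.40 (adjusted p = 0.140) and -0.21 (adjusted p = 0.539). The fall is a result for 1 probe. Across from it, Slfn5os read -4.62, -3.66, -5.25, -4.60 and -4.55 in knockout samples 1 to 5, against -3.74, -3.98, -3.27, -3.47 and -3.14 in wild-type samples 1 to 5. Knockout sample 2 lay within the wild-type values and the other 4 knockout samples below them. The difference was -1.02 ± 0.26 (SE of the fit; adjusted p = 0.0534), which did not pass, with 3 of 5 knockout arrays well above background. Slfn5os met the detection rule through wild type alone, so its lower knockout value was partly selected. The pair's difference between genotypes was -0.60 (exact permutation p = 0.0635). With normexp background correction and its offset of 50, Slfn5 was at -0.45 (adjusted p = 0.00739) and Slfn5os at -0.10 (adjusted p = 0.434). The pair's difference turned to 0.35 (exact permutation p = 0.0397), so the values for Slfn5os and for the pair depend on that processing. By its brightest probe Slfn5 was lost without wild-type sample 2, 4 or 5 and on slide 2 alone (-0.37, adjusted p = 0.0743).

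Zeb2, a zinc finger repressor, differed by -0.31 ± 0.09 (SE of the fit; adjusted p = 0.0652) on its brightest probe and Zeb2os by -0.56 ± 0.36 (SE of the fit; adjusted p = 0.344). A dim Zeb2 probe passed at -1.10 (adjusted p = 0.0137), but it met the filter through wild type alone, with 2 of 5 knockout arrays well above background. The other 3 kept Zeb2 probes were at -0.34 (adjusted p = 0.0808), -0.76 (adjusted p = 0.131) and 0.42 (adjusted p = 0.513). Slc7a6, the light chain of an amino acid exchanger, read -1.20, -1.25, -1.19, -1.23 and -1.30 in knockout samples 1 to 5, against -1.01, -0.88, -1.13, -0.62 and -0.78 in wild-type samples 1 to 5. Knockout samples were tight and all below wild type, and the difference was -0.35 ± 0.10 (SE of the fit; adjusted p = 0.0729). Slc7a6os, a protein-coding neighbour, differed by 0.02 ± 0.11 (SE of the fit; adjusted p = 0.944).

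The last comparison set each member against the brightest probe of its sense gene on the same array, which cancels the array's scaling. There were 55 such pairs, from 50 transcripts and 49 sense genes. Both log2 differences lay above 0 in 16 pairs and below 0 in 15, the opposite-strand value alone was above 0 in 17, and the sense value alone in 7. Across the 55 pairs the differences correlated weakly (Pearson r = 0.36, Spearman rho = 0.34), a description over loci that share the same 10 arrays.

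**Figure D4:**
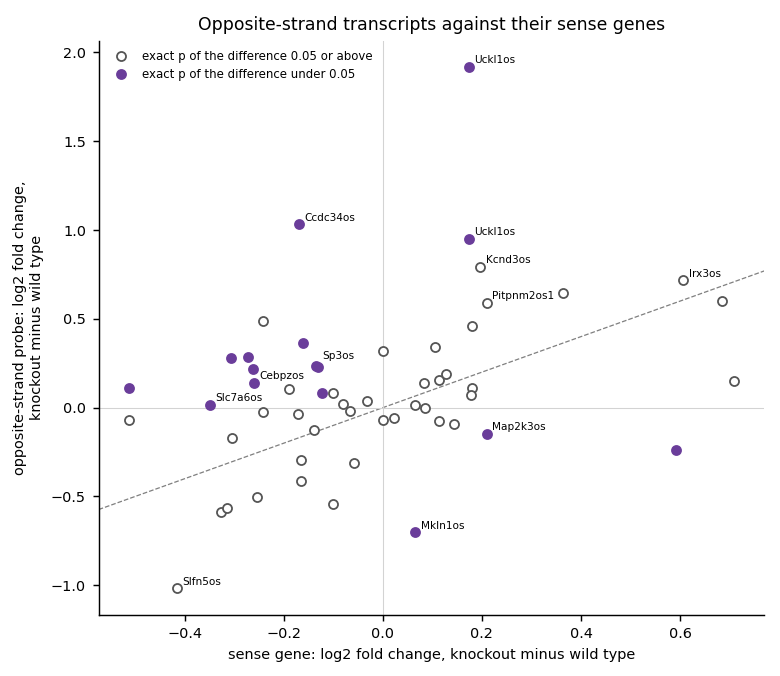
Log2 fold change, knockout minus wild type, of each opposite-strand probe (y axis) against that of its sense gene's brightest kept probe (x axis), for 55 pairs. Filled points are pairs whose difference had an exact permutation p under 0.05, and the dashed line marks equal change. Names are given for pairs with a call on either strand or with the smallest exact p. Uckl1os lies far above the line with Uckl1 near 0, Slfn5os lies at the lower left with Slfn5, and Irx3os lies close to the line.

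In 16 of the 55 pairs (29.1%) the members moved unequally at an exact two-sided permutation p under 0.05, not adjusted for the 55 tests. By the same test on single probes the share was 24.7% of all kept probes with a value on every array, 29.9% of the opposite-strand probes and 24.5% of the sense genes, so a share of this size is near the background and is not read as a result about the pairs. The opposite-strand transcript was higher relative to its partner in 13 of them and lower in 3 (Mkln1os, Map2k3os and Ctrcos). Mkln1os, Ctrcos, Etaa1os and Srrm4os met the detection rule through wild type alone. The lower knockout values of Mkln1os and Ctrcos were thus partly selected, while Etaa1os (0.28) and Srrm4os (0.11) read higher in knockout. For 7 of the 16 pairs the sense gene had another kept probe, and with the next brightest one 2 of the 7 (Sox6os and Map2k3os) stayed under 0.05 in the same direction and 1 (Srrm4os, -0.15) turned. The exact p of 6 pairs reached 0.00794, the smallest p that the arrangements of 10 arrays into 2 groups of 5 can give: Ccdc34os, Sp3os, Cebpzos, Slc7a6os, Map2k3os and Mkln1os. Most of these are pairs of small opposite movements, neither of which passed alone.

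Cebpzos and Sp3os are the 2 of these among the 10 brightest probes. Cebpzos is a protein-coding gene of the locus of Cebpz, a protein of ribosome assembly, and read 3.68, 3.02, 3.08, 3.52 and 3.11 in knockout samples 1 to 5, against 3.20, 3.12, 3.14, 3.13 and 3.12 in wild-type samples 1 to 5. Cebpz read 1.23, 1.02, 0.84, 1.21 and 1.14 in knockout samples 1 to 5, against 1.48, 1.56, 1.27, 1.27 and 1.18 in wild-type samples 1 to 5. The differences were 0.14 for Cebpzos and -0.26 for Cebpz, neither past the threshold, and the pair differed by 0.40 (exact permutation p = 0.00794).

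Map2k3os ran the other way. The partner Map2k3, a kinase that activates p38 MAP kinases, differed by 0.21 and Map2k3os by -0.15, a pair difference of -0.36 (exact permutation p = 0.00794). Sp3os was higher relative to Sp3 by 0.37 (exact permutation p = 0.00794), and Ccdc34os relative to Ccdc34 by 1.20 (exact permutation p = 0.00794). For Ccdc34os the difference was 0.73 without wild-type sample 2 (exact permutation p = 0.00794), 0.52 on slide 2 alone (exact permutation p = 0.0714) and 0.62 against a dimmer Ccdc34 probe (exact permutation p = 0.278).

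At the Frmd8 locus, the probes of both strands cover the same bases. Frmd8os read -1.74, -2.09, -2.26, -1.35 and -2.02 in knockout samples 1 to 5, against -2.06, -2.18, -2.00, -2.06 and -2.24 in wild-type samples 1 to 5. Frmd8, a regulator of the protease that sheds TNF, read 1.02, 0.99, 1.00, 0.92 and 1.26 in knockout samples 1 to 5, against 1.22, 1.27, 1.29, 1.38 and 1.34 in wild-type samples 1 to 5. For Frmd8, 4 of 5 knockout samples lay below all wild-type samples and knockout sample 5 within them, and the groups overlapped for Frmd8os. Neither passed (Frmd8os 0.22 ± 0.16 (SE of the fit; adjusted p = 0.398) and Frmd8 -0.26 ± 0.08 (SE of the fit; adjusted p = 0.0938)), and the strands differed by 0.48 (exact permutation p = 0.0159).

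Among the other pairs under 0.05, Srrm4os was higher relative to Srrm4, a splicing factor known from neurons, by 0.63 (exact permutation p = 0.0159), with Srrm4os well above background on 2 of 5 knockout arrays. Sox6os was higher relative to the transcription factor gene Sox6 by 0.59 (exact permutation p = 0.0159). Etaa1os, Ccpg1os and Fam120aos were higher relative to their partners by 0.56, 0.36 and 0.21. Slc7a6os was higher relative to Slc7a6 by 0.36 (exact permutation p = 0.00794). Ctrcos was lower relative to the chymotrypsin gene Ctrc, at -0.83 (exact permutation p = 0.0476), with both probes near background. On slide 2 alone, 10 pairs had an exact p under 0.05, with both Uckl1os probes, Mkln1os, Sp3os, Srrm4os and Cebpzos among them.

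Calls fell in loci of both layouts. Of the 33 probes whose gene spans overlap the sense gene, 4 passed, and of the 27 whose spans lie apart, 2 passed, against 4.44% of all kept probes. Among the 23 probes with starts within 1000 bases of the sense start, 1 passed, Mkln1os. These are counts, and the difference between them was not tested.

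By the words of its annotation, the most like class on the array was the 31 probes described as antisense or overlapping transcripts without the words opposite strand. Of these, 18 were kept. None of the 18 passed in limma, against 4.44% of all kept probes, with 4 (22.2%) under an unadjusted p of 0.05, 11 (61.1%) above 0 and 3 past the adjusted threshold with normexp background correction. The class holds Airn and Kcnq1ot1, imprinted antisense RNAs, and Pax6os1, whose probes were at 0.54 (adjusted p = 0.0839) and 0.66 (adjusted p = 0.135). Since it was taken by words alone, it also holds genes such as Leprot, Leprotl1 and Wrap53, and is not a class of antisense RNAs only. Whether the opposite-strand probes differ from that class was not tested.

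Of a list of 25 long non-coding RNAs known from heart or imprinting, 22 were on the array and 14 were kept, and 0 of their 26 probes passed in limma, against 4.44% of all kept probes (2 had an unadjusted p under 0.05, against 26.1% of all). Their differences ran from -0.60 to 0.16 with a median of -0.17, taking the brightest probe of each, and 4 of 14 lay above 0. The smallest p-values were those of a Gas5 probe at 0.33 (adjusted p = 0.113), of Tug1 at -0.34 (adjusted p = 0.123) and of an Airn probe at -0.34 (adjusted p = 0.213). Mhrt, an antisense transcript of the Myh7 locus, was at 0.10 (adjusted p = 0.585).

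**Figure D5:**
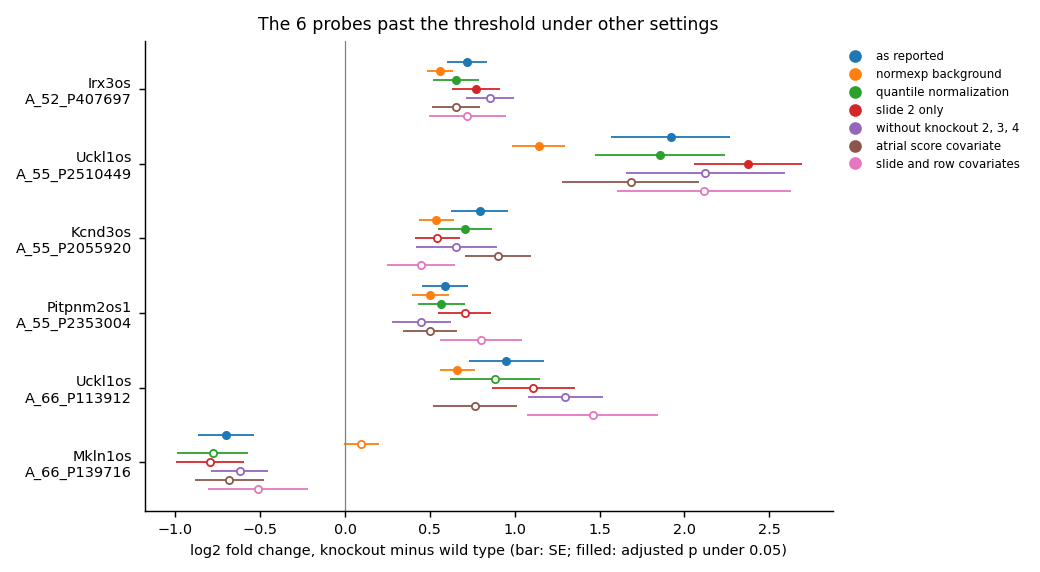
Log2 fold change, knockout minus wild type, with its SE (x axis) for the 6 probes past the threshold, under the reported fit and 6 alternatives, with filled marks past an adjusted p of 0.05. Direction was kept throughout except for Mkln1os with normexp background correction, at 0.10, and no mark is filled with the atrial score or with slide and row in the fit, or without knockout samples 2, 3 and 4.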

How the data were processed

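Cardiac tissue RNA of 5 HIPK2 knockout and 5 wild-type samples was measured on 1-colour Agilent arrays, and the titles gave each sample's genotype and number. Per the file headers, the deposited spot intensity was background-subtracted and detrended by the scanner software (Agilent Feature Extraction 10.7.1.1, per the submitters' processing notes). The authors also deposited a log2 value table of the same arrays, whose columns share 1 median (4.75). It correlated with its own arrays at r of 0.918 to 0.996, after removal of each probe's mean, and its background treatment is not given in the sources used here.

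The main values are log2 processed intensity minus the log2 of the array's 75th percentile over 59305 non-control spots. Outlier spots were dropped and spots of 1 probe averaged, giving 56605 probes. The 30693 probes well above background on at least 4 of 5 arrays of 1 genotype were fitted in limma 3.58.1 (R 4.3.3; lmFit, eBayes, no covariates) with Benjamini-Hochberg adjustment over all of them and a threshold of 0.05. The fit was tested on simulated data with 200 of 30677 probes changed. It recovered 15.5% of log2 changes of 0.5, 70.5% of changes of 1 and 95.5% of changes of 2. Of its calls, 6.06%, 8.44% and 3.05% were false. A probe that did not pass can thus still have changed. The number of arrays limits the precision.

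Opposite-strand probes were kept as probes. A sense gene was the name without os (for Zbtb8os, Zbtb8b, through its RefSeq synonym), read by the brightest of its kept probes, on average over all arrays. The difference within each array was tested by an exact two-sided permutation over 252 arrangements (NumPy 2.4.6), without adjustment over pairs. RefSeq tables (GRCm38.p6) gave current names, gene types and start sites. Probe positions are on mm9, and coordinate order matched RefSeq's strand for 99.7% of 26122 probes. Same-numbered samples did not deviate together (r of -0.10 to 0.06), so numbers were not treated as pairs. Named probes were those past the threshold or of smallest p, those whose groups did not overlap, the brightest, those with several probes or a sense gene past the threshold, and the pairs with the largest differences. Frmd8, Dnm3os and other pairs under an exact p of 0.05 were also named after their values were seen. A result that the naming rule would take is not reported here. Members and lists were chosen with earlier results of these data known. Alternatives were background correction, normalization, filters, slide, marker scores as covariates, 1 probe per gene, a replicate block and leaving out samples. Slide with row, leaving out arrays with under 55% of spots above background, and other probes of the sense genes were added after seeing the data.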

Additional observations from a re-analysis of the deposited data

Results flagged for a closer look

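In 6 of 72 groups of 5 samples, for the probes that the naming rule took and Slfn5, the most extreme sample stood apart from the rest by more than Dixon's 95% critical value of 0.71 of the group's range. Chance alone flags about 5% of groups. Hoxb5os read 0.28 in knockout sample 3, against -0.32 to -0.17 in the other knockout samples. Ccdc34os read -4.09 in wild-type sample 2, against -2.36 to -1.79 in the other wild-type samples, and this sample widens the mean difference for Ccdc34os given above. Cebpzos read 3.20 in wild-type sample 1 (others 3.12 to 3.14), and Fbxl12os read 2.50 in wild-type sample 2 (others 2.31 to 2.36), both within narrow groups. Arhgap27os1 had 1 such sample in each genotype, with -2.71 in knockout sample 3 (others -3.97 to -3.61) and -2.14 in wild-type sample 1 (others -3.32 to -3.12). The knockout samples concerned are both sample 3, which had the fewest opposite-strand probes well above background (47), and the wild-type samples are both on slide 1. Whether these facts bear on the values was not tested.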

How the results depend on the processing

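Of the 6 opposite-strand calls, 5 remained with 1 probe per gene (5 of 58 probes passed), 4 with quantile normalization and 4 with the deposited value table. With the slide as a block 6 probes passed, of which 5 were the same. Slide 1 held only wild-type samples, so that fit has the differences of slide 2 alone and is not a separate check. With a filter of all 10 arrays 4 of 39 passed, of which 3 were the same. The fit with slide and row compares knockout sample 1 with wild-type samples 3 to 5, so no count is given for it. Counts of opposite-strand probes, sense genes and all probes past the threshold in limma were 2, 0 and 522 on slide 2 alone. They were 0, 0 and 19 without knockout samples 2, 3 and 4, and 0, 0 and 220 with no filter. With the atrial score they were 0, 0 and 78, and with atrial and fat scores 0, 0 and 1. With normexp background correction they were 19, 4 and 4517, 3423 of those 4517 higher in knockout (75.8% of calls, against 38.0% in the reported fit). With it, 3 of the other antisense or overlapping transcript probes passed. That correction, with its offset of 50, moved the median of all kept probes to 0.09, against 0.01. It reversed Mkln1os (0.10) and 1 Junos probe (0.31, adjusted p = 0.0384), and made 19 opposite-strand calls, all higher. The parts of the correction and of the offset in these shifts were not separated. With a filter of all 10 arrays 2 sense genes passed, Slfn5 and Zeb2, and over every kept probe of a sense gene the same 2. A replicate block gave 0, 0 and 239, but same-numbered samples share only a number. No filter leaves every probe to be adjusted for. Over all 198 opposite-strand probes it gave 0 calls in limma (97 at an unadjusted p under 0.05). Over all 56605 probes it gave 220 calls (20471 unadjusted), with a median difference of 0.22.

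Leaving out 1 sample at a time, the counts were 2 to 5 opposite-strand probes, 0 to 1 sense genes, 302 to 1224 of all probes, and 14 to 16 pairs with an exact p under 0.05. Fewest of all probes passed without wild-type sample 5 (302), 4 (355) or 2 (403). The 16 unequal pairs became 15 with the next brightest sense probe, but not the same pairs. Mkln1os, Ccdc34os, Ccpg1os, Srrm4os and Slc7a6os fell out, and Pitpnm2os1, Slfn5os, Hk1os and Snhg7os came in. The count was 25 with normexp and 10 on slide 2 alone. It was 6 without knockout samples 2, 3 and 4, where 21 arrangements allow no p below 0.0476. Over 36 probes (those the naming rule took, and Slfn5) and 23 settings, 658 of 808 values kept their direction and their side of the threshold, 87 lost their call, 10 gained one and 53 had the opposite sign, 51 of them with no call in either fit. On slide 2 alone, and with the slide as a block, these were Atcayos at -0.21, Ggnbp2os at 0.025, the second Tmem147os probe at 0.025 and the second Junos probe at 0.23. With slide and row, where knockout sample 1 is the only knockout sample behind the difference, these were the third Zbtb8os probe at 0.32, Atcayos at -0.12, the first Junos probe at -0.63, the first Tmem147os probe at -0.35, the second Junos probe at 0.70, Srrm4os at -0.21, Ctrcos at 0.0078 and Crxos at -0.063. Without knockout samples 2, 3 and 4 these were the third Zbtb8os probe at 0.030, the first Junos probe at -0.22, the second Tmem147os probe at 0.024, the second Junos probe at 0.45, Srrm4os at -0.21 and Crxos at -0.046. With the atrial score these were the second Tmem147os probe at 0.0097 and Srrm4os at -0.025. With atrial and fat scores these were Fbxl12os at 0.083, Atcayos at -0.013, Ggnbp2os at 0.014, the second Tmem147os probe at 0.037 and Srrm4os at -0.11. With normexp these were the first Med9os probe at 0.055, the second Med9os probe at 0.016, the second Tmem147os probe at 0.16, Ctrcos at 0.16 and Arhgap27os1 at 0.011. Leaving out 1 sample at a time, ranges that crossed 0 were -0.080 to 0.15 for Atcayos, -0.11 to 0.11 for Fbxl12os, -0.063 to 0.013 for Ggnbp2os, -0.15 to 0.17 for the second Junos probe, -0.010 to 0.25 for Srrm4os, -0.068 to 0.56 for the first Tmem147os probe and -0.048 to 0.087 for Toporsos. Dim members limit what can be read: 21 of the 67 were not well above background on enough knockout arrays to meet the rule there.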
